A study of Mus musculus with 8 samples.

Results

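Messenger RNAs of 7 neuropeptide precursor genes, Sst, Cort, Npy, Tac1, Cck, Penk and Pdyn, were followed in mouse visual cortex after the removal of 1 eye. The genes were taken by name: every probe set of the array that the platform annotation pairs with a single one of these symbols was used. That gave 10 probe sets for 7 of the 8251 genes that the array names. Of these, 9 lay above the filter on dim probe sets (a signal of about 110.0), at least 1 for each gene, and the tenth was a dim probe set of Penk.

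The mice were wild-type C57Bl6. They lost an eye at postnatal day 20, and visual cortex was taken 4 days later, at postnatal day 24. Deprived cortex is that contralateral to the lost eye, and non-deprived cortex the ipsilateral one, so all samples came from operated mice. Each group had 4 of the 8 arrays, which carry the numbers 1 to 4. The labels' protocols speak of 4 mice and the series' design text of pooled samples, so an array may hold 1 animal or a pool, and p-values measure the spread between these arrays, which may be technical.

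Cortical inhibitory neurons release small peptides beside GABA, and each class of these cells has its own set. Somatostatin marks cells that contact the distal dendrites of pyramidal neurons, neuropeptide Y is shared by several classes, and cholecystokinin is made by a basket cell class and also by pyramidal neurons. The peptides are cut from longer precursors and act on G-protein-coupled receptors, mostly as modulators. Transcription of several of these precursors is known to respond to neuronal activity through cAMP- and calcium-driven factors such as CREB, which bind the cAMP response element (CRE).

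That element is visible in the promoter of Sst, and its shorter form in those of Tac1, Cck and Cort, which is why these stretches are shown. Promoter sequences were taken from RefSeq for GRCm38.p6, as 300 bases per transcription start (250 before it and 50 after). Of the 7 genes 6 had an entry, with 7 windows in all. Penk had none, so its promoter was not searched. The complete CRE, TGACGTCA, which reads the same on each strand, occurred in 1.79% of 32851 promoter windows, and among the members searched in Sst alone. The short form, TGACG or CGTCA, was in 20.8% of all windows, a share that includes every complete CRE. It was in 4 of the members' 7 windows, from 4 of the 6 genes with an entry. The AP-1 sequence, TGAGTCA or TGACTCA, was in 5.2% of all windows and in 0 of the members' windows. A match is a description of these letters and not a measured site. Capitals mark the match, and each stretch is given 5′ to 3′ on the strand of the gene and ends before the start site. The Sst stretch lies at chr16:23890845-23890932 (minus strand), those of Tac1 at chr6:7554824-7554908 and chr6:7554978-7555060 (plus strand), that of Cck at chr9:121495697-121495781 (minus strand) and that of Cort at chr4:149126764-149126821 (minus strand).
Sst, match from -48 to -41: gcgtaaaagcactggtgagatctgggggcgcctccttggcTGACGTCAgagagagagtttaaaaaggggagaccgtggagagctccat
Tac1, match from -197 to -193: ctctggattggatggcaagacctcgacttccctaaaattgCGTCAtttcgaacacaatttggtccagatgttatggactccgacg
Tac1, match from -43 to -39: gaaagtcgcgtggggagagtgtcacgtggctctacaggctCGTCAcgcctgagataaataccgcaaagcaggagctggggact
Cck, match from -47 to -43: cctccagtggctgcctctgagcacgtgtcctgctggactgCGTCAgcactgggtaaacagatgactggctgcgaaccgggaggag
Cort, match from -18 to -14: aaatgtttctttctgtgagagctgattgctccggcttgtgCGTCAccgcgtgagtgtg

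By the brightest probe set of each gene, all 7 precursors had a lower mean in deprived cortex, with a median log2 difference of -0.49 against 0.02 over all 7453 probe sets tested. Differences are deprived minus non-deprived, on the scale of log2(signal + 15.3), which understates changes of dim genes. Of all probe sets, 45.1% lay below 0. Tac1, Npy, Cort, Sst and Penk lay furthest down, between -0.61 and -0.43, Cck at -0.22 and Pdyn at -0.03. None passed limma's test after Benjamini-Hochberg adjustment over all probe sets: every member's adjusted p was 0.995, and 0% of the array was called lower. Without adjustment, Tac1 and Cort, 2 of the 7 genes and 2 of the 9 member probe sets, lay under the 0.05 level and lower in deprived cortex. Of all probe sets, 1.22% did. In a tissue sample, fewer cells of a type and less mRNA per cell cannot be told apart.

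Arrays of the same number were alike beyond their group. Deviations from the group means correlated between arrays of the same number for each number, at 0.16 to 0.42 over all probe sets, against -0.27 to 0.12 for other numbers. The likeness was weakest for number 3, at 0.16, near the 0.12 of non-deprived array 3 with deprived array 4. The comparison is therefore also given within pairs, with the number as a block in limma. Sst, Npy, Tac1, Cck and Penk were lower in the deprived array of 4 of 4 pairs, as were 6.92% of all probe sets. With the block, 5 of 7 genes by their brightest probe set, Npy, Sst, Tac1, Cort and Penk, were lower in deprived cortex at the 0.05 level without adjustment. That was 5 of the 9 member probe sets, where 3.65% of all probe sets were. With the block, Sst, Npy and Tac1 varied together at r of 0.95 to 0.99, so the 5 are not independent. After adjustment 0% of all probe sets were called lower in the blocked fit as well, with limma's adjusted p at 0.685 for Sst and Npy and 0.703 for Tac1, Cort and Penk. Without the pair numbered 1 those under the unadjusted level were 3, Sst, Npy and Tac1, against 4.12% of all probe sets. They were the same 5 genes without the pair numbered 2, 3 or 4, against 2.68%, 2.64% and 4.27% of all probe sets.

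**Figure D1:**
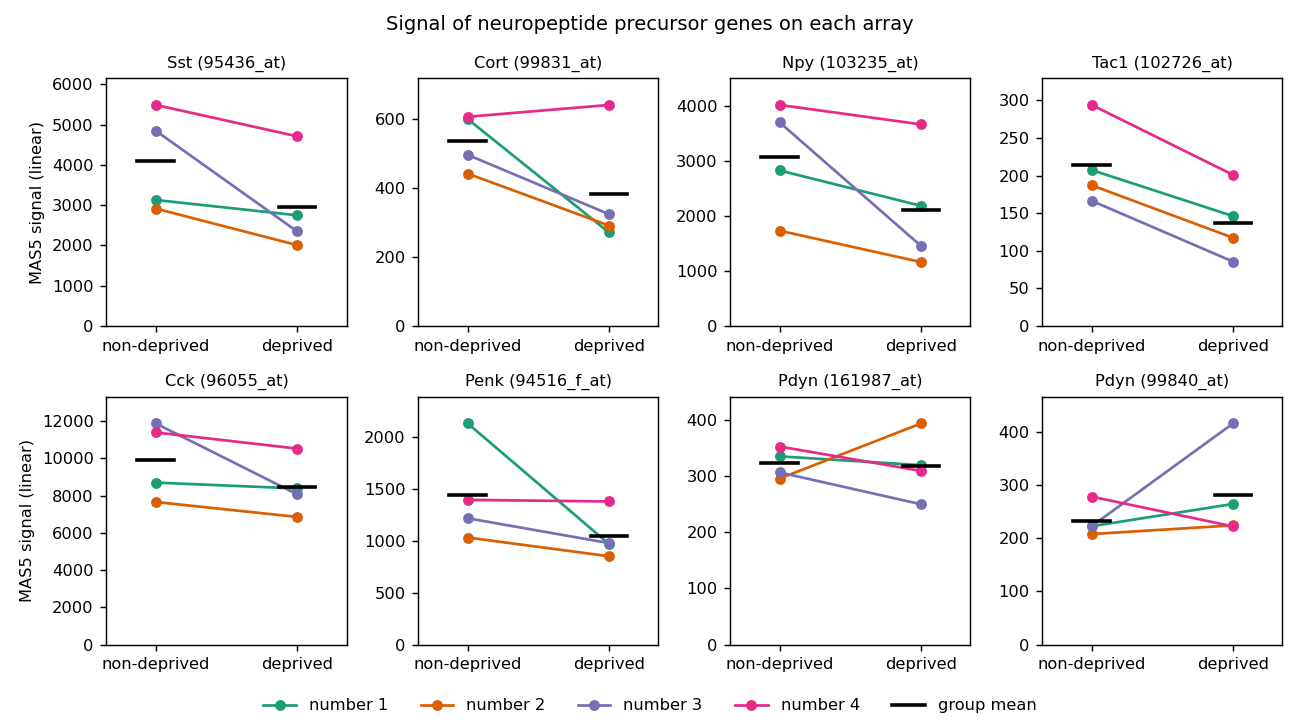
Signal of each array (linear MAS5 units, axis from 0) for the brightest probe set of 7 precursor genes and the other Pdyn probe set. Lines join arrays of the same number and black bars are group means of 4 arrays. Lines fall from left to right in 4 of 4 pairs for Sst, Npy, Tac1, Cck and Penk, and the groups overlap in every panel.

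Somatostatin and cortistatin are related peptides that act on the same somatostatin receptors. The Sst signal was 3130, 2917, 4850 and 5491 on non-deprived arrays 1 to 4 and 2750, 2010, 2351 and 4712 on deprived arrays 1 to 4. Each deprived array lay below the non-deprived array of its number, and 3 of the 4 lay below every non-deprived array, but deprived array 4 was higher than non-deprived arrays 1 and 2. Means were 4097 ± 1270 and 2956 ± 1209 (SD, n = 4 each), with a log2 difference of -0.49 ± 0.27 (SE), or ± 0.14 in the blocked fit. By pair, the log2 difference was -0.19, -0.53, -1.04 and -0.22 for numbers 1 to 4. The pair numbered 3 thus had the deepest difference, with the deprived array at 48.5% of the signal of its partner. Without deprived array 4 the difference of Sst was -0.74.

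Cort followed another order of pairs. Its signal was 599.6, 441.5, 495.9 and 606 on non-deprived arrays 1 to 4 and 271, 291, 324 and 640.5 on the deprived ones. Deprived arrays 1 to 3 lay below every non-deprived array, and deprived array 4 lay above all 4 of them. The log2 difference was -0.55 ± 0.25 (SE), from means of 536 ± 80.7 and 382 ± 174 (SD, n = 4). It was deepest in the pair numbered 1, at -1.10, and 0.08 in the pair numbered 4. Without deprived array 4 the difference of Cort was -0.82, which did not pass limma's test after adjustment.

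Neuropeptide Y is released by several interneuron classes and acts mainly through Y1 and Y2 receptors. The Npy signal was 2832, 1735, 3705 and 4024 on non-deprived arrays 1 to 4 and 2187, 1164, 1457 and 3671 on deprived arrays. Arrays numbered 4 were highest and arrays numbered 2 lowest in each group, so the groups overlapped widely. Means were 3074 ± 1025 and 2120 ± 1120 (SD, n = 4), and the log2 difference was -0.60 ± 0.34 (SE). The error fell to ± 0.17 with the block. Pairs differed by -0.37, -0.57, -1.34 and -0.13 on the log2 scale, the deepest being number 3 again, where the deprived array had 39.3% of its partner's signal. The difference of Npy was -0.91 without deprived array 4 and -0.36 without deprived array 2.

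Tac1 encodes the precursor of substance P and neurokinin A. It was a dim member, at 207, 187, 166 and 294 on non-deprived arrays 1 to 4 and 146, 117, 85.6 and 201 on deprived arrays. Its pairs were the most even of the 7 genes, with log2 differences of -0.46, -0.61, -0.85 and -0.52 and an SD of 0.17 between them. The groups overlapped because deprived array 4 lay above non-deprived arrays 2 and 3. The log2 difference was -0.61 ± 0.27 (SE), a fold of 0.655 on that scale.

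Cck, the cholecystokinin precursor, had signals of 8703, 7660, 11882 and 11398 on non-deprived arrays 1 to 4 and 8388, 6858, 8077 and 10531 on deprived arrays. All 4 pairs were lower, 3 of them by little: -0.05, -0.16 and -0.11 for numbers 1, 2 and 4, against -0.56 for number 3. The log2 difference was -0.22 ± 0.18 (SE), or ± 0.11 with the block, and did not pass the unadjusted level in either fit. It was -0.13 without non-deprived array 3 or deprived array 2, -0.15 without non-deprived array 4, and -0.34 and -0.33 without non-deprived array 2 or deprived array 4.

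Penk and Pdyn encode the precursors of the enkephalins and dynorphins, ligands of the delta and kappa opioid receptors. Their probe sets did not give a single answer. The bright Penk probe set, whose _f_at suffix marks probes that can match a family of sequences, had 2132, 1032, 1218 and 1395 on non-deprived arrays 1 to 4 and 969, 851, 978 and 1380 on deprived arrays, a log2 difference of -0.43 ± 0.22 (SE). Non-deprived array 1 stood highest, the pair numbered 1 differed by -1.13 and that numbered 4 by -0.02, and without non-deprived array 1 the difference was -0.23. A dimmer Penk probe set, with the suffix _r_at for relaxed probe design rules, had 0.04 ± 0.28, lower in 3 of 4 pairs but higher by 1.08 in the pair numbered 2. The third was left out by the filter, with signals of 0.7 to 28.2, at which no order can be read.

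For Pdyn, the brighter probe set had 335, 295, 306 and 352 on non-deprived arrays 1 to 4 and 319, 393, 249 and 309 on deprived arrays, with a log2 difference of -0.03 ± 0.17 (SE). The dimmer probe set had 223, 208, 223 and 279 against 265, 225, 416.5 and 223, with 0.22 ± 0.22. These probe sets differed in sign in the pair numbered 1, at -0.07 and 0.23, and in the pair numbered 3, at -0.28 and 0.86. Neither of them passed the unadjusted 0.05 level with or without the block, and the difference of the brighter one was 0.07 without deprived array 3. No direction can be given for Pdyn.

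**Figure D2:**
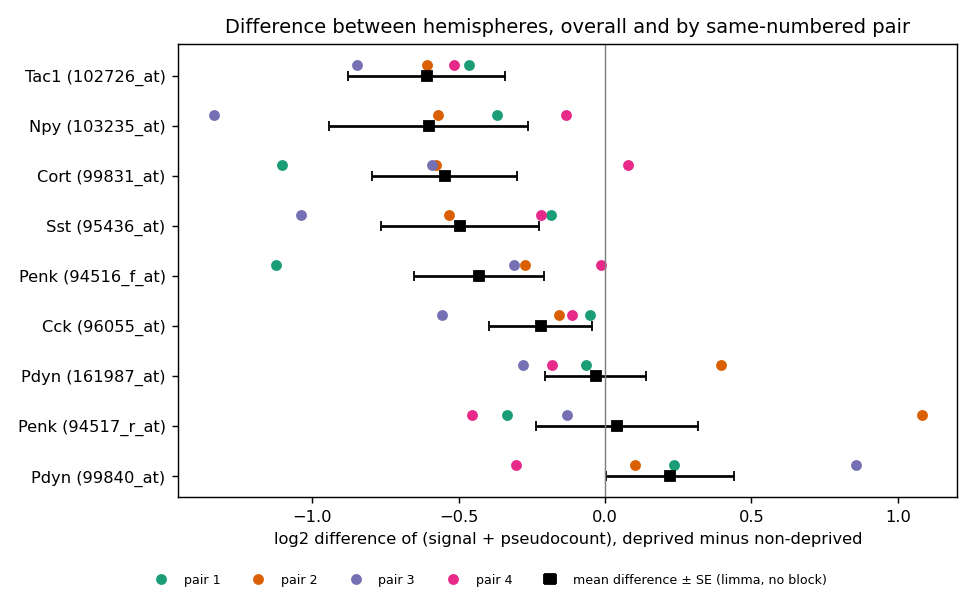
Log2 difference (deprived minus non-deprived) for the 9 probe sets above the filter; squares and bars are the mean difference ± SE from limma without a block, and coloured dots are the 4 same-numbered pairs. All dots of Tac1, Npy, Sst, the bright Penk probe set and Cck lie below 0, those of Cort reach 0.08, and the other Penk and the Pdyn probe sets straddle 0.

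Over the brightest probe sets, 7 of 7 genes were lower in the pairs numbered 1 and 3, and 6 of 7 in those numbered 2 and 4. The median of the 7 differences was -0.37, -0.53, -0.59 and -0.13 for numbers 1 to 4, against 0.00 to 0.07 over all probe sets in the same pairs. The median was nearest 0 in the pair numbered 4, though Sst, Tac1, Cck and Pdyn differed less in the pair numbered 1. For 0 of the 7 genes did every deprived array lie below every non-deprived array, which held for 0.805% of all probe sets.

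The members were next compared by how they varied among arrays of 1 group, after subtracting each group's mean. These correlations are descriptions over 8 arrays that share the scaling and deviate together by number, so no p is given. Sst, Npy and Cck varied most closely together: Pearson r was 0.94 for Sst and Npy, 0.95 for Sst and Cck and 0.93 for Npy and Cck, with Spearman's rho of 0.95 for each pair of genes. Arrays 4 and 3 were high for all 3 genes in non-deprived cortex, and array 4 alone in deprived cortex. With any 1 array left out, r among these 3 genes was at least 0.89. Cort correlated with them at 0.61 to 0.74 and Tac1 at 0.48 to 0.70, but at 0.27 to 0.38 and 0.19 to 0.46 without deprived array 4. With the number as a block, which leaves the differences within 4 pairs, Tac1 was as close to them as they were to each other, at 0.95 to 0.99, and Cort was at -0.04 to 0.26. Penk had its highest r with Cort, at 0.73, but with Sst, at 0.97 in place of 0.35, without non-deprived array 1. Pdyn had -0.12 to 0.05 with every gene but Tac1 (0.44), and 0.37 to 0.87 with all 6 without deprived array 2. The median over the 21 gene pairs was 0.57, and 0.27 without deprived array 4.

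**Figure D3:**
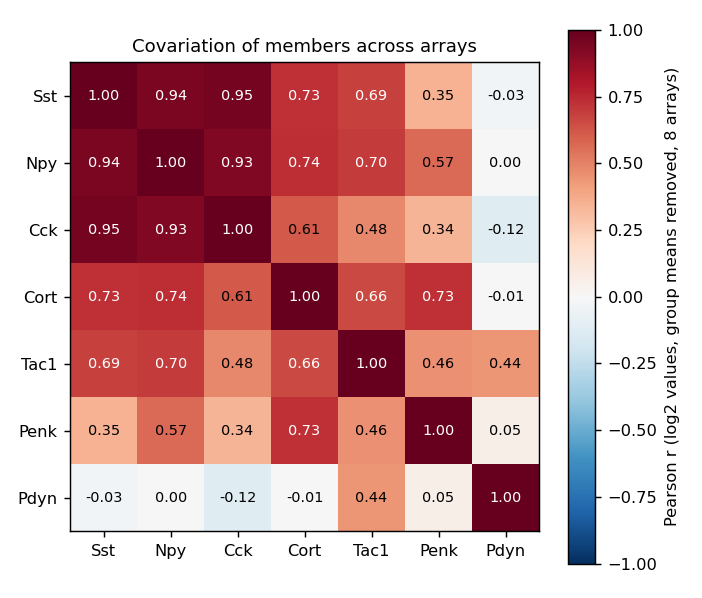
Pearson r between the log2 values of 7 precursor genes over 8 arrays, group means removed, 1 probe set per gene; red is positive and blue negative. Sst, Npy and Cck form a block of 0.93 to 0.95, and the row of Pdyn is near 0 except for Tac1.

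The genes most like each member by this measure were picked by rule, the 3 highest r among 7453 probe sets, and at 8 arrays such a maximum is high for any gene. For Npy they were Timm8b (r = 0.99), 1110008P14Rik (0.99) and Hint1 (0.99). For Cck they were Uqcr10, Naxe and Atp5md (0.99 each), and for Sst they were Apc2, Mrps11 and Txn2 (0.99 each). Tac1 was most like Shisa5, Tm2d2 and Gpr37l1 (0.97 to 0.99), Cort like Tmem176b, Naa38 and Lhb (0.94 to 0.95), Penk like Gfra1, Mat2b and Mrm3 (0.96 to 0.98) and Pdyn like Efnb3, Spr and Snx12 (0.92 to 0.94). An r above 0.7 was reached by 11.6% of all other probe sets for Npy, 10.1% for Sst and 9.68% for Cck, but by 1.54% for Pdyn.

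A measure of RNA integrity varied with Sst, Npy and Cck. For the beta-actin control, the signal of the 3' probe set over that of the 5' one, a ratio that rises as 5' ends are lost, was 1.63, 1.43, 1.25 and 1.26 on non-deprived arrays 1 to 4 and 1.60, 1.91, 1.71 and 1.33 on deprived arrays. Group means were 1.39 ± 0.179 and 1.64 ± 0.239 (SD, n = 4, exact two-sided permutation p = 0.171), and the ratio was higher in the deprived array of 3 of 4 pairs, all but number 1. Over the 8 arrays with group means removed, its r was -0.93 with Sst, -0.87 with Cck and -0.81 with Npy, where the lowest 5% of all probe sets lay below -0.77. It was -0.56 with Cort, -0.54 with Tac1, -0.07 with Penk and 0.24 with Pdyn. With the ratio as a covariate the log2 differences were 0.03 for Sst, 0.06 for Cck and -0.01 for Npy, but -0.28 for Cort, -0.36 for Tac1 and -0.40 for Penk. With the ratio and the block together they were -0.17 ± 0.15 (SE) for Sst, -0.06 ± 0.14 for Cck, -0.22 ± 0.19 for Npy, -0.59 ± 0.28 for Cort, -0.47 ± 0.30 for Tac1 and -0.66 ± 0.22 for Penk. This fit has more terms for the same 8 arrays. Its errors exceed those with the block alone, which were ± 0.18 for Cort and ± 0.19 for Tac1. Penk alone passed the unadjusted level in limma, 1 of 7 members against 2.39% of all probe sets.

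**Figure D4:**
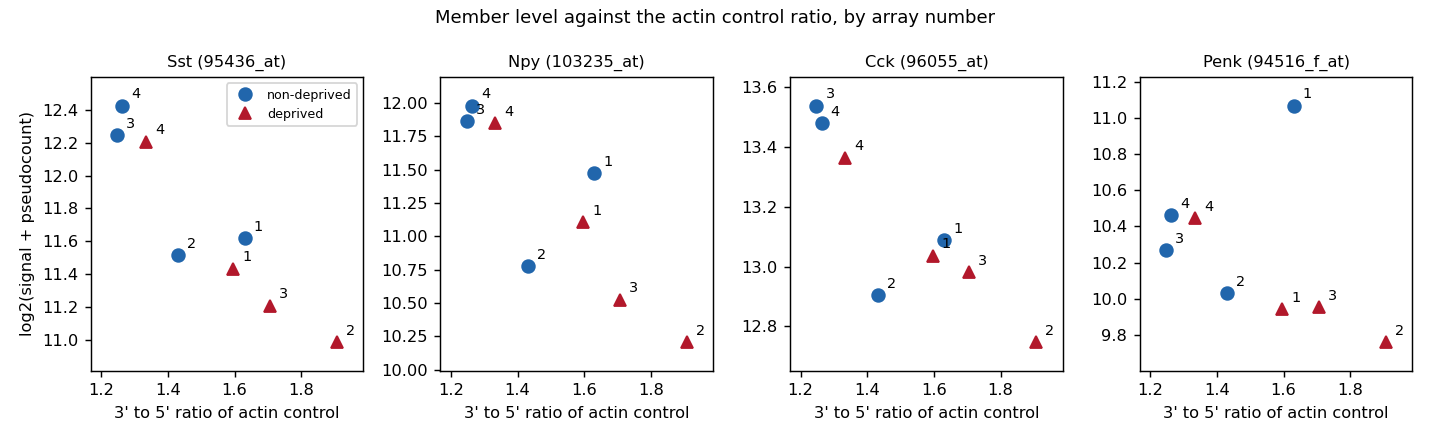
Log2(signal + 15.3) of Sst, Npy, Cck and Penk against the actin 3'/5' signal ratio, 1 point per array with its number; circles are non-deprived and triangles deprived. Arrays with a ratio of 1.25 to 1.33 have the highest Sst, Npy and Cck values in either group, whereas Penk is highest on non-deprived array 1, whose ratio is 1.63.

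The same ratio for Gapdh was lower in the deprived array of 4 of 4 pairs, with means of 0.842 ± 0.0345 for deprived and 0.898 ± 0.0543 for non-deprived arrays (n = 4, exact permutation p = 0.143), and with it as a covariate the differences were -0.44 for Sst, -0.59 for Npy, -0.26 for Cck, -0.46 for Cort, -0.45 for Tac1 and -0.48 for Penk. With this ratio and the block, 2 of 7 members, Sst and Npy, passed the unadjusted level, against 2.20% of all probe sets. Dim signals were higher in deprived arrays, whose 10th percentile was 17.2 ± 2.68 against 13.5 ± 0.718 (n = 4, exact permutation p = 0.0286, the smallest that 70 assignments allow). Median signals, 183 to 209, had means of 200 ± 7.85 in deprived and 189 ± 6.46 in non-deprived arrays (n = 4, exact permutation p = 0.114). They were higher in the deprived array of 4 of 4 pairs. With group means removed, r of the 10th percentile was 0.86 with Cort, 0.78 with Sst, 0.65 with Cck and 0.64 with Npy. It was 0.56 with Tac1, 0.30 with Penk and -0.02 with Pdyn. Without that removal it was -0.27 (Penk) to 0.06 (Cck). Its r with all probe sets was not computed. In deprived cortex the percentile was 15, 16.4 and 16.3 on arrays 1 to 3 and 21.1 on array 4. Deprived array 4 also had the highest Sst, Cort, Npy, Tac1, Cck and Penk signals of its group. The r values with this percentile were not computed without that array.

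Genes that mark interneurons without encoding a peptide had a median log2 difference of 0.00. Of 22 on this list, 14 were above the filter, 7 of them below 0, and 0 passed the unadjusted level in either direction, with or without the block. Gad1, which makes GABA, had mean signals of 4396 ± 806 (non-deprived) and 4414 ± 578 (deprived), a log2 difference of 0.02 ± 0.16 (SE). The vesicular GABA transporter Slc32a1 had -0.06 ± 0.34, and the calcium-binding protein Pvalb of basket cells had 0.03 ± 0.18. Lhx6, the transcription factor of the lineage that gives somatostatin and parvalbumin cells, had 0.28 ± 0.15, higher in 4 of 4 pairs, and the serotonin receptor subunit Htr3a, which marks another lineage, 0.42 ± 0.22. The difference between the peptide precursors and these genes was not itself tested.

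**Figure D5:**
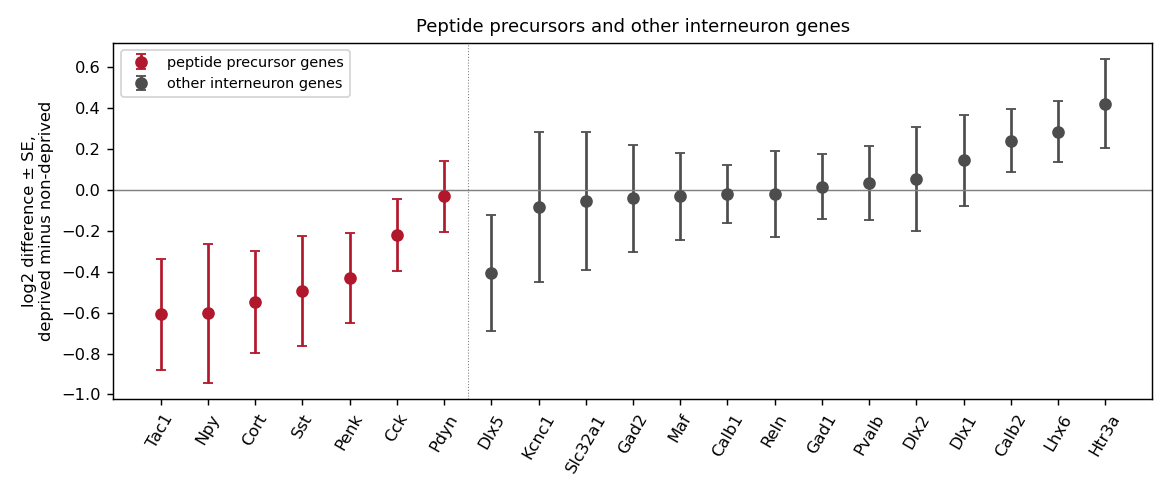
Log2 difference ± SE (limma, 4 arrays per group) of the 7 precursor genes, in red, and of 14 other interneuron genes above the filter, in grey, each group sorted by value. The red points run from -0.61 to -0.03 and the grey ones from -0.41 (Dlx5) to 0.42 (Htr3a).

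Among receptors for the members' peptides, 17 of 18 had a probe set and 5 were above the filter, all with a difference above 0 and 0 past the unadjusted level without the block. Npy2r, the Y2 receptor found on terminals that release neuropeptide Y, had 333 ± 22.7 and 448 ± 128 (SD, n = 4), a log2 difference of 0.37 ± 0.20 (SE), and was higher in 4 of 4 pairs. It was the 1 receptor past the unadjusted level with the block. Of all 7453 probe sets, 524 passed that level with the block in either direction, 272 of them lower. The limma adjusted p of Npy2r without the block was 0.995, and its probe set carries the _f_at suffix. The somatostatin receptor genes Sstr4 and Sstr2 had 0.10 ± 0.16 and 0.06 ± 0.16, the cholecystokinin receptor gene Cckbr 0.09 ± 0.16 and Npy1r 0.01 ± 0.19. The 3 opioid receptor genes, Oprd1, Oprm1 and Oprk1, were below the filter.

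Of 26 other neuropeptide precursors 15 had a probe set and 6 were above the filter. Of these 6, 4 lay below 0, with a median of -0.14 and 0 past the unadjusted level. Vip, which marks a class of interneurons that inhibit other interneurons, had -0.16 ± 0.20, the pituitary adenylate cyclase-activating peptide gene Adcyap1 -0.17 ± 0.18, and Pomc, dim at 97.8 in non-deprived cortex, 0.52 ± 0.42. Of 11 enzymes and granins that process and pack peptides, 9 had a probe set and 8 were above the filter. Of these 8, 5 lay below 0, with a median of -0.07. Scg2, a granin, had -0.29 ± 0.13, and Pcsk1n, an inhibitor of a precursor-cleaving enzyme, -0.37 ± 0.26. Both were lower in 4 of 4 pairs and passed the unadjusted level with the block and not without it.

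Penk, Pdyn and Tac1 are abundant in striatum, so markers of neighbouring tissue were read beside them. Of 12 striatal genes 4 had a probe set and 3 were above the filter. The summed signal of all 4 was 2697 to 4059 in non-deprived and 2776 to 3355 in deprived arrays, lower in 3 of 4 pairs. Pde1b and Foxp1 made up most of this sum, with mean signals of 1920 and 1037 in non-deprived arrays. Those of Drd2 and Rgs9 were 130 and 30.7, so the sum says little of them. Drd2, the dopamine receptor of enkephalin-making striatal neurons, had a signal of 106 to 202 and a difference of 0.29 ± 0.24. Foxp1 had -0.16 ± 0.17. Of 9 hippocampal genes 6 had a probe set and 3 were above the filter, among them Wfs1 (-0.28 ± 0.14) and Neurod1 (0.13 ± 0.35). Sums over the 6 ran from 1357 to 1826 in non-deprived and from 1258 to 1556 in deprived arrays. Wfs1 was the brightest of the 6, at a mean of 997 in non-deprived arrays. Whether the signal of Pde1b, Foxp1 or Wfs1 came from cortex itself was not tested. Of 8 thalamic genes 6 had a probe set and 5 were above the filter, with Tcf7l2 at 0.32 ± 0.19 and Zic1 at 0.29 ± 0.28. Sums over the 6 ran from 2046 to 2378 and from 2169 to 2798 and were higher in 4 of 4 pairs. With the block, Wfs1 was lower and Tcf7l2 higher at the unadjusted level, each in 4 of 4 pairs. For 10 of 16 genes of cortical excitatory neurons, all above the filter, sums were 19530 to 23108 and 18344 to 23019 and the median difference was 0.04, with the cortical factor Tbr1 at a signal of 3768 to 7820, Neurod2 at -0.34 ± 0.20 and Fezf2 at 0.30 ± 0.18. The part of tissue composition in the members' differences was not tested.

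Markers of non-neuronal cells above the filter had medians near 0. The median log2 difference was -0.05 for 7 of 12 oligodendrocyte genes (Mobp 0.18, Mog -0.13), -0.07 for 8 of 10 astrocyte genes (S100b -0.29, Glul 0.56), 0.08 for 7 of 10 microglial genes (C1qc -0.18, Cx3cr1 0.18), 0.07 for 9 of 10 endothelial and mural genes (Cldn5 -0.30, Acta2 -0.18) and -0.13 for 3 of 4 blood genes (Hbb-b2 -0.23, Hba-a1 -0.13). None of these genes passed the unadjusted level without the block. With it, S100b and Cldn5 were lower at that level and Glul and Gja1 higher, and their part in the members' differences was not tested. Activity-regulated genes, a list chosen with results of these arrays known and so no independent evidence, were lower for 12 of 12 genes at that level and for 0 after adjustment, with a median of -0.61 and Fos, a transcription factor gene induced by neuronal firing, at -0.89 ± 0.17 (SE) and Junb, another such gene, at -0.68 ± 0.15.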

How the data were processed

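The authors deposited linear intensities of 12488 probe sets on 8 one-colour arrays in 1 table. The submitters' processing notes name MAS5, with no version or settings in the sources used here. The table's 2% trimmed means were all 500.3 after rounding. Each array was rescaled to a common trimmed mean, 66 controls were left out, and values became log2(signal + 15.3), 15.3 being the 10th percentile of all signals. Probe sets with a mean above the 40th percentile were kept, 7453 in all. The platform annotation gave 1 symbol to 10833 probe sets, several to 396 and none to 1193. Of those with 1 symbol, 10817 were matched by Entrez identifier to the GRCm38.p6 gene table and took its symbol, changed or not.

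The comparison used limma 3.58.1 (R 4.3.3; lmFit, then eBayes with an intensity trend), two-sided and adjusted by Benjamini-Hochberg over all kept probe sets at 0.05, without a block and with the array number as a block. The number of arrays limits the precision. Same-numbered arrays deviated together (r = 0.16 to 0.42, against -0.27 to 0.12 for other numbers; all 4 above the limit of 0.1), a pairing that comes from shared numbers in the titles. The fit was tested on simulated data with planted changes larger than the members' differences. That test does not cover changes of the members' size. In lists, each gene had its brightest probe set. All 7 members are named, all receptors above the filter, the 2 genes of smallest p of each other list and the 3 genes most like each member. Gad1, Slc32a1, Pvalb, Vip, Dlx5, Tbr1, Gja1 and the opioid receptors were named in addition, after their values were seen. The members and lists were chosen with earlier results of these data known. Alternatives were scaling, pseudocount, filter, trend, array weights, control ratios as covariates, the block, and leaving out arrays or pairs. Plots were made in Python 3.11.15 with matplotlib 3.10.9.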

Additional observations from a re-analysis of the deposited data

Results flagged for a closer look

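Among 28 groups of 4 values examined (10 probe sets and 4 array measures in each group of arrays), 1 array stood far from the other 3 in 2 groups, and chance flags about 1 in 20 groups, or 1.4 here. For Cort in deprived cortex the gap was 0.857 of the group's range, set by array 4 at 640.5, where the other 3 had 271 to 324. For the dim Penk probe set in deprived cortex it was 0.868, set by array 3 at 22.7, a signal near the 10th percentile of the arrays.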

How the results depend on the processing

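All values here are log2 differences unless named otherwise. No alternative for which adjusted calls were counted called any probe set lower or higher. Where a control ratio, another scaling or the loss of a pair was added to the block, only unadjusted calls were counted. Tac1, Cort, Npy and the bright Penk probe set kept their direction in every alternative run; Npy ranged from -0.91 to -0.0071 and Tac1 from -0.79 to -0.36. With the actin ratio as a covariate Sst turned to 0.029, Cck to 0.059 and the dimmer tested Penk probe set to -0.046, and the median of the members was -0.087 in place of -0.49. That Penk probe set was also -0.036 with quantile and -0.046 with cyclic loess scaling, -0.028 with array weights, -0.42 with the Gapdh ratio, -0.25 (non-deprived array 2) to 0.17 (non-deprived array 1) with 1 array left out, -0.31 without both arrays numbered 2, and -0.39 with the replicate block and the actin ratio, where the dimmer Pdyn probe set turned to -0.035. With 1 array left out, the brighter Pdyn probe set ran from -0.14 (without deprived array 2) to 0.072 (without deprived array 3). It was -0.18, 0.049 and 0.017 without both arrays numbered 2, 3 or 4. A filter at the 60th percentile removed Tac1, that Penk and the dimmer Pdyn probe set, so it gives no value for them. The cause of these turns was not tested. The members' median was -0.74 without deprived array 4 and -0.34 without deprived array 2, the ends of its range with 1 array left out. The replicate block changed no adjusted call. The median r between members was 0.57, from 0.27 without deprived array 4 to 0.72 without non-deprived array 1, and 0.25 with the replicate block. In the fit with the block, 5 members had an unadjusted p under 0.05 (3.65% of all probe sets), 1 with the actin ratio (2.39%), 2 with the Gapdh ratio (2.20%) and 3 to 5 with a pair left out (2.64% to 4.27%); these, and the block with the actin ratio, are alternatives chosen after seeing the data.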
